A study of Mus musculus with 30 samples.

Results

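The colon of mice whose intestinal epithelial cells lack XBP1, caspase-8 and the TNF receptor TNFR1 was compared with that of WT mice, to ask which genes still differed from WT once the receptor was deleted as well. The comparison rests on 10 of the 30 libraries of the series, 5 of this TNFR1 triple knockout and 5 of WT, and on the 15458 genes with enough reads in the fit of all 30. The triple knockout carries the genotype XBP1IEC-KO;Casp8IEC-KO;TNFR1IEC-KO, in which Xbp1, Casp8 and Tnfr1 (gene symbol Tnfrsf1a) are deleted in intestinal epithelial cells (IEC). A second set of 5 libraries, the double knockout XBP1IEC-KO;Casp8IEC-KO in which TNFR1 is not deleted, served to test where the triple knockout differed from it. For 2 genes, levels are also given in 5 mice each of the Xbp1 knockout (XBP1IEC-KO), the Casp8 knockout (Casp8IEC-KO) and the MLKL triple knockout (XBP1IEC-KO;Casp8IEC-KO;MLKLKO), whose MLKL deletion carries no IEC tag in the labels. The driver of the deletions and the age, treatment and litter of the mice are not given in the labels. Each library was made from the colon RNA of 1 mouse. The tissue also holds muscle, immune, vessel and nerve cells that keep all 3 genes, and in such bulk RNA fewer cells of a type cannot be told apart from less RNA per cell.

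XBP1 is a transcription factor of the endoplasmic reticulum (ER) stress response that builds up the secretory pathway, on which goblet cells and plasma cells rely. Caspase-8 cuts downstream targets to start apoptosis when TNFR1 or related receptors are engaged, and it holds back necroptosis, a lytic death carried out by RIPK3 and MLKL. TNFR1 can drive NF-kB target genes through a complex with RIPK1 and TRADD, or drive cell death through FADD and caspase-8.

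Library totals were 4308821 to 5136444 reads in the triple knockout and 3693330 to 4445925 in WT, so 1 read was worth about 0.232 CPM (read counts scaled to the same library size). Mitochondrial genes took 19.3 ± 2.54% of the reads in the triple knockout and 17.6 ± 1.05% in WT (SD, n = 5 each). The labels do not give the sex of the mice. By Xist and genes of the Y chromosome, the triple knockout held 4 females and 1 male (replicate 3), while WT held 1 female (replicate 3) and 4 males, so that genotype and sex largely ran together. Replicate 1 of the triple knockout stood apart from the other 4. On the first principal component of all 30 libraries, which held 29.4% of the variance, it lay at 31.3, the other 4 triple knockouts at -5.35 to 8.13, the double knockouts at 13.6 to 41.0 and WT at -25.7 to -15.3.

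Of the 15458 genes 327 passed edgeR's quasi-likelihood test at an adjusted p under 0.05, which is 2.12% of those tested. Of these 179 were higher in the triple knockout (1.16%) and 148 lower (0.957%), and 107 of the higher and 42 of the lower genes differed by at least 2-fold. This number depended on the libraries and on sex. Without replicate 1 of the triple knockout it was 77, without replicate 3 it was 507 and without replicate 4 it was 129. Without WT replicate 1, 2, 4 or 5 it was 169, 136, 141 or 214. With the sex of the mouse as a term it was 74, and DESeq2 and limma voom called 560 and 836. In females alone, 4 triple knockouts against 1 WT, 8 genes passed, and in males alone, 1 against 4, 1 gene passed, with the spread taken from the groups with more than 1 mouse. Of the 327 genes 51 passed both with sex in the model and in every one of the 10 fits that left out 1 library, 25 higher and 26 lower, a set made after the counts had been seen. Of the 74 called genes named by rule 35 passed with sex in the model, 37 without replicate 1 of the triple knockout and 32 without each of the 10 libraries in turn.

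**Figure D1:**
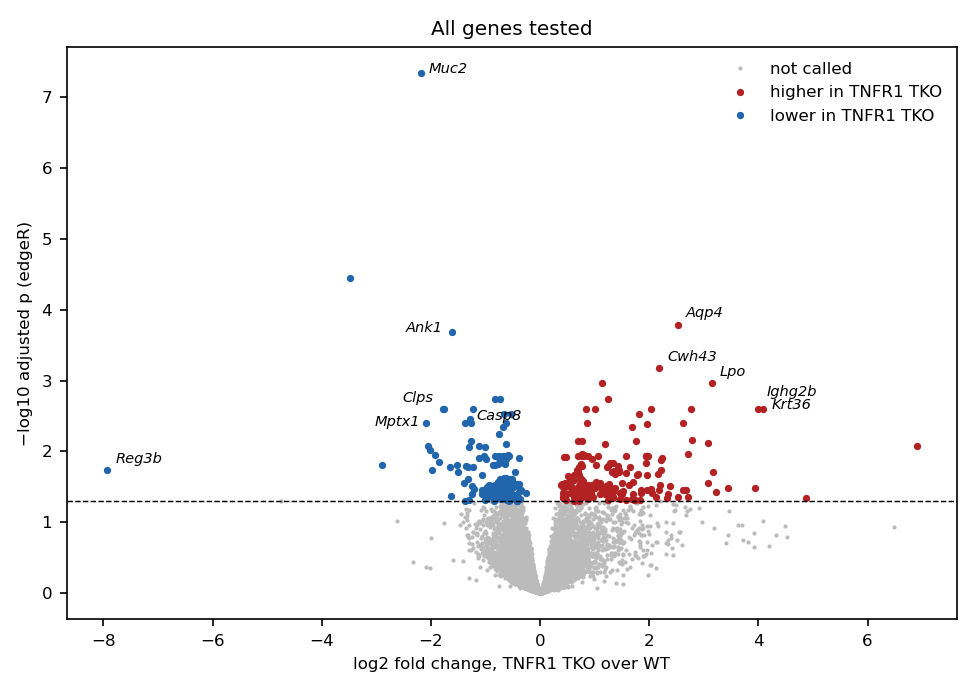
Log2 fold change of the triple knockout over WT (x axis) against the −log10 of the adjusted p (y axis, edgeR) for all 15458 genes tested, with the dashed line at the threshold of 0.05. Red points are the 179 genes higher and blue points the 148 genes lower in the triple knockout, and Muc2 lies far above the rest.

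The double knockout comparison depended on the libraries as well. In the fit of all 30 libraries 363 genes passed (2.35%), 158 higher in the triple knockout (1.02%) and 205 lower (1.33%), while 21 passed when these 2 groups alone were fitted. Without replicate 1 of the triple knockout the count was 931, and without replicate 2, 3, 4 or 5 it was 63, 167, 130 or 111. Without double knockout replicate 1, 2, 3, 4 or 5 it was 97, 733, 569, 99 or 149. The double knockout held 1 female and 4 males, so sex ran along this comparison too, and 264 genes passed with sex in the model. Differences from the double knockout given here rest on the fit of all libraries.

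The targeted genes came first, as a check of the labels. Casp8 had 33.6, 23.9, 19.1, 16.8 and 16.5 CPM in the 5 triple knockouts, against 51.5, 52.4, 52.4, 58.7 and 52.8 CPM in WT. Every triple knockout lay below every WT mouse, and the difference was -1.29 ± 0.23 on the log2 scale (SE, adjusted p = 0.00345, edgeR, and 0.0135 with sex in the model). Tnfrsf1a had 75.4, 61.5, 53.3, 52.4 and 57.7 CPM in the triple knockouts, against 70, 70.4, 78.9, 66.6 and 65 CPM in WT. Its ranges overlapped and it did not pass against WT (-0.23 ± 0.13, adjusted p = 0.381, edgeR). Against the double knockout, where Tnfrsf1a averaged 96 CPM, the difference was -0.68 ± 0.13 (adjusted p = 0.00557, edgeR, a comparison in which 363 genes or 2.35% passed). That double knockout mean lay above every WT value. Xbp1 had 109, 52.8, 52.2, 53.6 and 62.9 CPM in the triple knockouts and 100.2, 75.4, 94.9, 60.3 and 52.8 CPM in WT, with no call (-0.22 ± 0.20, adjusted p = 0.627, edgeR). A read at the 3′ end of a transcript can lie outside the deleted exons, and cells other than the epithelium keep the genes, so the values of Xbp1 do not check its deletion. The same limits hold for Casp8 and Tnfrsf1a. Against WT, Casp8 alone among the 3 passed. Tnfrsf1a overlapped WT through replicate 1 of the triple knockout alone, and its difference was -0.32 without that library (adjusted p = 0.311, edgeR). Mlkl, the executioner of necroptosis, which is not targeted here, had 30.2, 6.8, 11.1, 8.6 and 11.3 CPM in the triple knockouts and 5.72, 8.77, 5.98, 6.06 and 9.88 CPM in WT (0.90 ± 0.44, adjusted p = 0.281, edgeR), with replicate 1 of the triple knockout above all others.

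Muc2, the gel-forming mucin of the colon's mucus layer and the gene with the smallest p of all, had 746, 457, 300.0, 286 and 362 CPM in the 5 triple knockouts. In the 5 WT mice it had 1597, 1765, 2009.9, 2003 and 2389 CPM. The highest triple knockout reached less than the lowest WT mouse by a wide margin, and the male triple knockout (replicate 3) and the female WT mouse (replicate 3) sat with their genotypes. The difference was -2.18 ± 0.20 on the log2 scale (adjusted p = 4.55e-08, edgeR, and 3.48e-08 with sex in the model). It was -2.12 between the 4 female triple knockouts and the 1 female WT mouse and -2.69 between the 1 male triple knockout and the 4 male WT mice, values with 1 mouse on a side. Without any 1 library the largest adjusted p of Muc2 was 1.22e-06. Muc2 also lay below the double knockout, which averaged 697 CPM (-0.70 ± 0.19, adjusted p = 0.0457, edgeR). The Xbp1 knockout averaged 501 CPM, the MLKL triple knockout 649 CPM and the Casp8 knockout 1699 CPM.

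Of the 17 goblet cell product genes tested 4 fell and none rose (23.5%, beside 2.12% of all genes). Their median log2 fold change was -0.28, against 0.000649 over all genes. Tff3, a trefoil peptide of mucus, had 787, 631, 579.7, 486 and 583 CPM in the triple knockouts and 734, 786, 1134, 1030.3 and 1169.8 CPM in WT. Its ranges overlapped through replicate 1 of the triple knockout, and the difference was -0.66 ± 0.14 (adjusted p = 0.0134, edgeR, 0.0524 without replicate 4 of the triple knockout). Clca1, a metalloprotease that processes mucus, fell with no overlap, at 697 ± 195 CPM in the triple knockout and 1154 ± 106 CPM in WT (SD, n = 5 each, adjusted p = 0.0307, edgeR, 0.0982 without replicate 4 of the triple knockout). Fcgbp, a mucus protein linked to MUC2, averaged 472 ± 128 CPM in the triple knockout and 716 ± 104 CPM in WT (adjusted p = 0.0478, edgeR), and its call was lost in 9 of the 10 fits that left out 1 library but not without replicate 1 of the triple knockout (0.0132). Other products of the same cells did not pass. Zg16, a mucus lectin, had 3404, 2044, 2077, 1264 and 1535 CPM in the triple knockouts and 1938, 2182, 2496, 2931 and 3179 CPM in WT (adjusted p = 0.474, edgeR), and Agr2, an ER disulfide isomerase needed to fold MUC2, averaged 326 CPM in the triple knockout and 417 CPM in WT (adjusted p = 0.202). Retnlb was at 0 in all WT mice and reached 12.6 CPM in replicate 1 of the triple knockout alone, with at most 0.235 CPM in the other 4. None of the 17 transcription factors of secretory lineages passed by edgeR, limma voom or DESeq2 (1 at an unadjusted p under 0.05), and Atoh1, which commits cells to that lineage, averaged 33.8 CPM in the triple knockout and 27.4 CPM in WT (adjusted p = 0.44) and Spdef, which matures goblet cells, 16.6 CPM in the triple knockout and 14.5 CPM in WT (adjusted p = 0.678). Without replicate 1 of the triple knockout 5 goblet products passed, all lower, with a median of -0.48, and 3 passed with sex in the model. Bcas1os2, listed as a transcript opposite to Bcas1, fell by 1.22 ± 0.21 (adjusted p = 0.00249, edgeR). Its strand partner Bcas1 is a member of the goblet list (adjusted p = 0.0729), and the strand setting of the counting is not given, so reads of these 2 genes may be mixed.

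**Figure D2:**
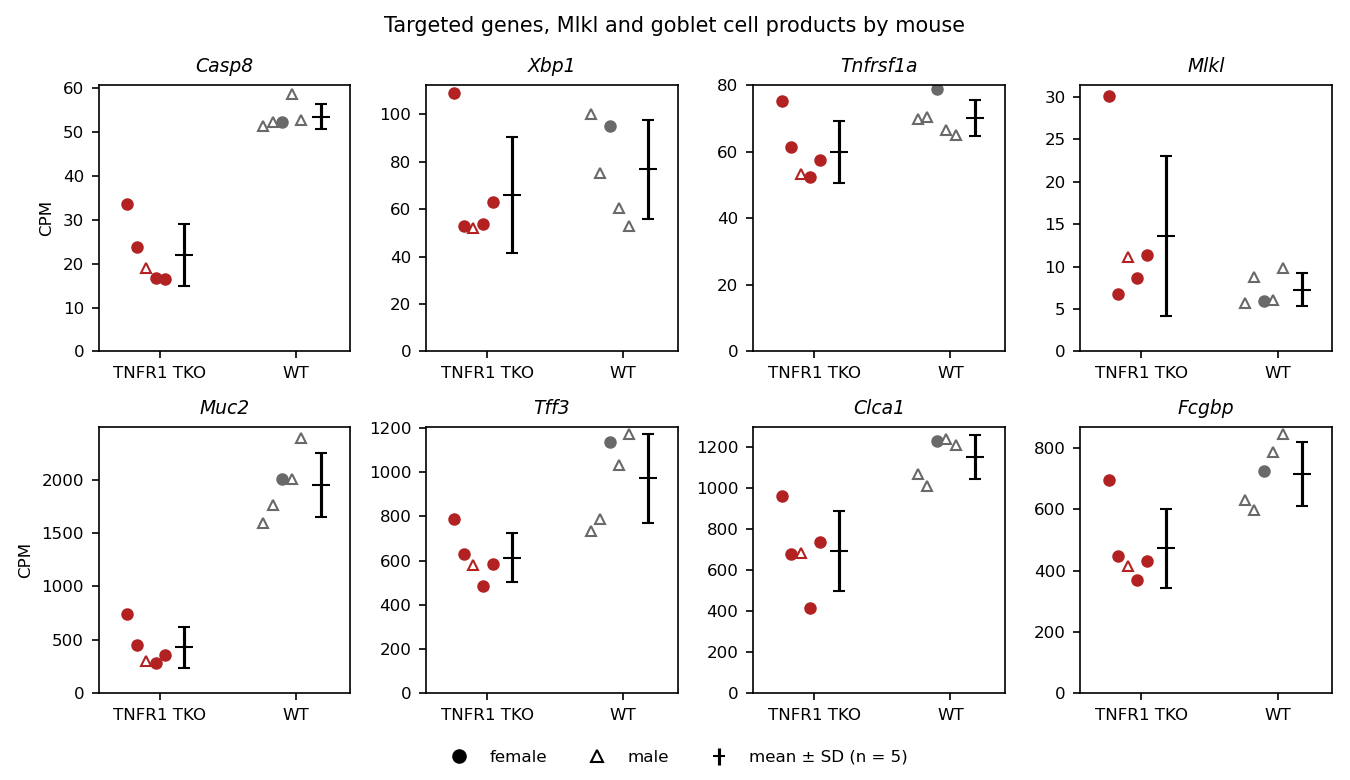
CPM (y axis) of the targeted genes, Mlkl and 4 goblet cell products in the triple knockout (red, left) and WT (grey, right), 1 point per mouse in order of replicate, filled circles for females and open triangles for males, with mean ± SD over 5 mice beside them. Casp8, Muc2 and Clca1 separate the groups completely, Xbp1 and Tnfrsf1a do not, and replicate 1 is the leftmost red point, high for Mlkl and Fcgbp.

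Of 49 ER and secretory genes that XBP1 controls 3 rose and 1 fell, which is 8.16% of them beside 2.12% of all genes, with a median log2 fold change of 0.06, and none passed with sex in the model or without replicate 1 of the triple knockout. Sec61a1, the channel of the ER translocon, had 100.4, 92.9, 111, 93.6 and 86 CPM in the triple knockouts and 120.2, 131, 125, 148 and 165 CPM in WT (adjusted p = 0.0326, edgeR, 0.0922 without WT replicate 5). Edem2, which marks misfolded glycoproteins for removal, averaged 26.4 CPM in the triple knockout and 17.7 CPM in WT (adjusted p = 0.0307). Derl2, a part of the export channel for misfolded proteins, averaged 55.5 CPM in the triple knockout and 41.2 CPM in WT (adjusted p = 0.039). Derl3, a relative of Derl2 that is abundant in plasma cells, averaged 3.78 CPM in the triple knockout and 0.806 CPM in WT (adjusted p = 0.0345), and it is also on the plasma cell list. None of 19 ER stress sensors and chaperones passed by edgeR (4 at an unadjusted p under 0.05, 1 by limma voom and 0 by DESeq2). Hspa5, the main ER chaperone BiP, had 989, 333, 430.1, 439 and 605 CPM in the triple knockouts and 491, 487, 529.9, 446 and 543 CPM in WT, so that the triple knockouts spread to both sides of WT. Of 21 genes of the ATF4 stress response 1 rose (4.76%, beside 2.12% of all genes), the amino acid transporter Slc7a5. It averaged 2.47 CPM in the triple knockout and 0.839 CPM in WT (adjusted p = 0.0365, edgeR, 0.158 without replicate 1).

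Of 38 genes of absorptive colonocytes 4 rose and none fell (10.5%, beside 2.12% of all genes), with a median of 0.10. Aqp4, a basolateral water channel, had 349.9, 146, 189, 142 and 211 CPM in the triple knockouts and 55.9, 19, 26.9, 42.2 and 35.9 CPM in WT, a rise of 2.53 ± 0.35 (adjusted p = 1.65e-04, edgeR). The lowest triple knockout lay above the highest WT mouse, and Aqp4 passed with sex in the model (0.00185) and without any 1 library (0.00142 at most). Against the double knockout, which averaged 229 CPM, the difference of Aqp4 was -0.14 ± 0.32 (adjusted p = 0.863). Cldn4, a tight junction claudin, had 102, 72.5, 63.5, 52.8 and 76.9 CPM in the triple knockouts and 28.6, 35.8, 32.4, 36.3 and 22.1 CPM in WT (1.24 ± 0.21, adjusted p = 0.00184, edgeR, 0.0156 with sex). Slc9a3, the sodium-proton exchanger NHE3, averaged 22.8 ± 13.6 CPM in the triple knockout and 5.83 ± 3.37 CPM in WT (adjusted p = 0.0147, edgeR), and Clca4a 104 ± 23.9 CPM in the triple knockout and 41.6 ± 11.7 CPM in WT (adjusted p = 0.0371). Both lost their calls without replicate 1 of the triple knockout (0.0775 and 0.127). Most of the abundant colonocyte genes did not pass, among them Slc26a3, the chloride exchanger, at 1981 CPM in the triple knockout and 1856 CPM in WT, and Car1, a carbonic anhydrase, at 1389 CPM in the triple knockout and 1833 CPM in WT.

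Further genes of small p were higher in every triple knockout than in any WT mouse. Krt36, a keratin, had 64.2, 8.21, 24, 39.8 and 25.6 CPM in the triple knockouts and 2.2, 2.61, 3.22, 0.932 and 0.26 CPM in WT (4.09 ± 0.72, adjusted p = 0.00249, edgeR). Lpo, lactoperoxidase of mucosal secretions, had 18.7, 4.69, 4.66, 10.8 and 10.2 CPM in the triple knockouts and 0.88, 0.948, 1.15, 1.4 and 1.04 CPM in WT (3.14 ± 0.50, adjusted p = 0.00109). Both separated the groups, although WT values of about 1 CPM rest on a handful of reads. S100a11, a calcium-binding protein, averaged 183 ± 49.1 CPM in the triple knockout and 82.9 ± 11.7 CPM in WT (adjusted p = 0.00109). Cwh43, which remodels the lipid of GPI anchors, averaged 19.7 ± 8.49 CPM in the triple knockout and 4.38 ± 1.95 CPM in WT (adjusted p = 6.56e-04). Ddah1, which breaks down methylated arginines that inhibit nitric oxide synthases, had 91.4, 24.9, 33.1, 38.6 and 28.3 CPM in the triple knockouts, highest in replicate 1, and 7.92, 9.01, 9.66, 14 and 12 CPM in WT (adjusted p = 0.00249). Mgat4c, of the glycosyltransferases that branch N-glycans, averaged 162 ± 78.2 CPM in the triple knockout and 41.5 ± 14.8 CPM in WT (adjusted p = 0.00416). The groups lay apart in each of these genes as well, replicate 1 of the triple knockout being far the highest for Ddah1 and Mgat4c. Stoml2, a mitochondrial membrane protein, averaged 30.6 ± 5.22 CPM in the triple knockout and 15.3 ± 4.27 CPM in WT (adjusted p = 0.00249). Mt1, a zinc-binding metallothionein, averaged 1149 ± 230.3 CPM in the triple knockout and 593 ± 109.7 CPM in WT (adjusted p = 0.0127), and Nqo1, a quinone reductase, 18.2 ± 2.9 CPM in the triple knockout and 8.92 ± 2.56 CPM in WT (adjusted p = 0.0267, edgeR, 0.0731 without replicate 1). Cd44, a hyaluronan receptor and WNT target, averaged 71.7 ± 10.2 CPM in the triple knockout and 39.4 ± 9.06 CPM in WT (adjusted p = 0.00395).

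Genes of small p that fell in the triple knockout include secreted and signalling proteins. Mptx1, a secreted pentraxin, had 56.2, 239, 331, 137 and 333 CPM in the triple knockouts and 728, 823, 1290.1, 781 and 1023 CPM in WT (-2.08 ± 0.38, adjusted p = 0.00393, edgeR). Clps, the colipase that anchors pancreatic lipase, had 3.16, 10.1, 9.54, 4 and 10.4 CPM in the triple knockouts and 21.1, 29.6, 23.9, 25.4 and 27.8 CPM in WT (adjusted p = 0.00249). Wnt8b, a WNT ligand, had 4.86, 13.8, 9.32, 11.8 and 12.9 CPM in the triple knockouts and 27.1, 28.4, 29.7, 22.1 and 29.9 CPM in WT (adjusted p = 0.00393), and lay above the double knockout at 4.24 CPM (1.34 ± 0.30, adjusted p = 0.017, edgeR). Ank1, an adaptor between membrane and spectrin skeleton, had 12.6, 14.5, 20.9, 17.6 and 19.5 CPM in the triple knockouts and 44, 68, 58.9, 48 and 40.6 CPM in WT (adjusted p = 2.07e-04). In each of these 4 genes the groups did not overlap. Bend7 averaged 5.34 CPM in the triple knockout and 12.9 CPM in WT (adjusted p = 0.00395, edgeR) and Minar1 2.27 CPM in the triple knockout and 9.54 CPM in WT (adjusted p = 0.00829, 0.0675 with sex). Of 18 enteroendocrine genes Pyy and Gcg were the calls (11.1%, beside 2.12% of all genes). Pyy, an appetite-lowering peptide of L cells, fell to 71.6 CPM in the triple knockout, against 144 CPM in WT (adjusted p = 0.00875, edgeR). Gcg, the glucagon gene of the same cells, rose to 41.2 CPM in the triple knockout, against 24.1 CPM in WT (adjusted p = 0.0118, 0.0616 with sex).

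Among called genes with at least a 2-fold difference, the 12 higher and the 12 lower genes with the smallest p are all described here, and each of the 24 also passed when any 1 of the 10 libraries was left out. With sex in the model 23 of them passed, all but Minar1. In 23 the groups did not overlap, Stk38l being the exception. Of all genes tested 737 had this pattern (4.77%), 361 of them higher (2.34%) and 376 lower (2.43%). The 24 were chosen for their small p in this same comparison, so these counts follow in part from the choice. The 4.77% is a share of genes that were not so chosen. Of the 24, 4 differed from the double knockout, namely Muc2, Bcas1os2, Stk38l and Wnt8b.

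Several defence genes were highest in replicate 1 of the triple knockout. Of 19 antimicrobial and acute phase genes 3 rose and 1 fell (21.05%, beside 2.12% of all genes). The median was 0.88, or 0.55 without replicate 1, when only Lpo passed. Slpi, a protease inhibitor of mucosal secretions, had 429, 28.9, 57.3, 73.8 and 26.9 CPM in the triple knockouts and 10.3, 9.01, 10.3, 24.2 and 19 CPM in WT. All 5 triple knockouts lay above WT, replicate 1 by far the highest, and adjusted p was 0.028 with it and 0.261 without it (edgeR). Pla2g2a, a phospholipase that kills bacteria, had 21.2, 4.46, 4.88, 4.4 and 3.62 CPM in the triple knockouts and 0, 1.19, 0.92, 2.8 and 0.78 CPM in WT (adjusted p = 0.0437, 0.253 without replicate 1), and lay below the double knockout at 30.7 CPM (adjusted p = 0.0357, edgeR). Reg3b, an antibacterial lectin, was called lower, but it had 0.486, 0, 0, 0 and 0 CPM in the triple knockouts and 0, 0.237, 141, 3.03 and 0 CPM in WT, so that the call rested on WT replicate 3 (adjusted p = 0.0181, edgeR, 0.484 without it). In that mouse the list of small intestine and Paneth cell genes, of which none of 11 passed by edgeR (5 at an unadjusted p under 0.05, 2 by limma voom and 1 by DESeq2), had a mean log2 CPM of 4.85, against 3.06 to 3.56 in the other 4 WT mice, and its part in the value of Reg3b was not tested. The NADPH oxidase Duox2 averaged 146 CPM in the triple knockout and 71.2 CPM in WT (adjusted p = 0.141) and Lcn2, lipocalin of the acute phase, 1.98 CPM in the triple knockout and 2.07 CPM in WT (adjusted p = 0.96).

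**Figure D3:**
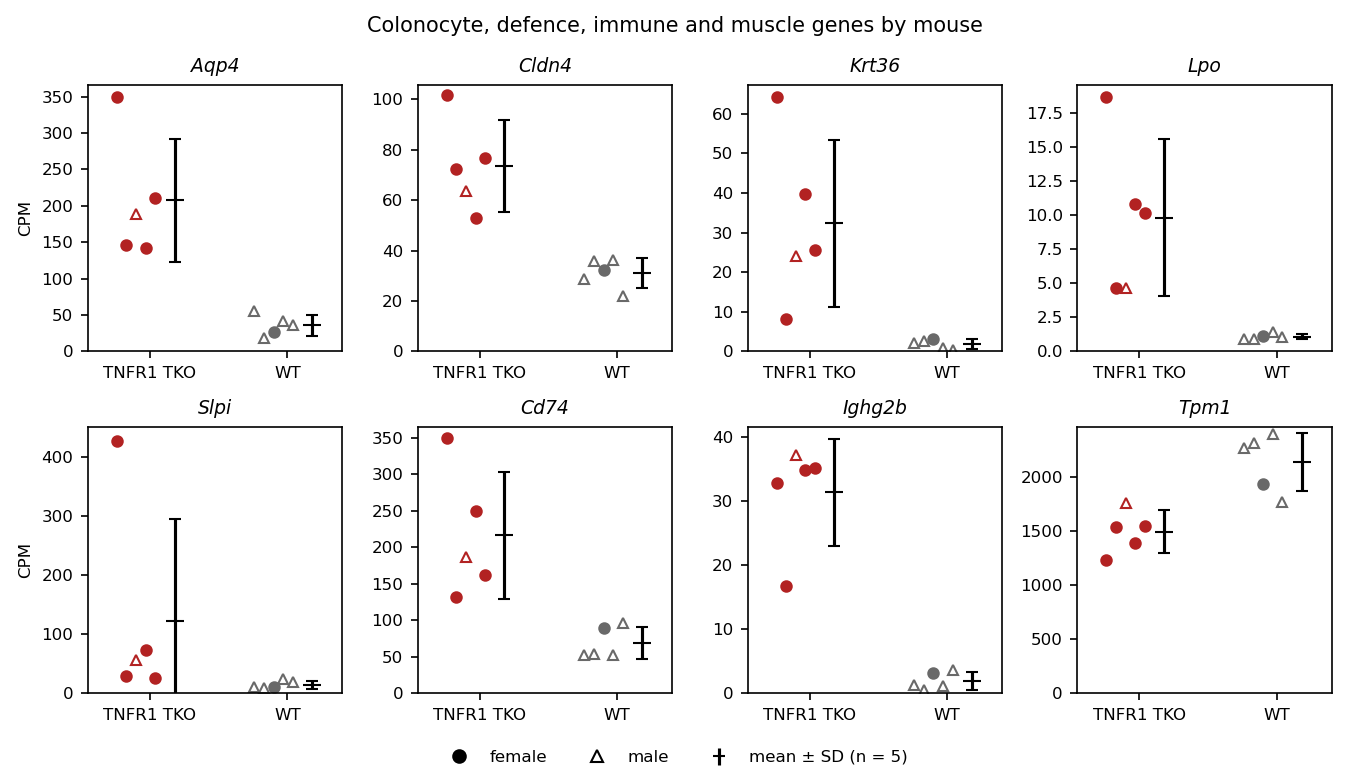
CPM (y axis) of Aqp4, Cldn4, Krt36, Lpo, Slpi, Cd74, Ighg2b and Tpm1 in the triple knockout (red, left) and WT (grey, right), 1 point per mouse in order of replicate, filled circles for females and open triangles for males, with mean ± SD over 5 mice. The groups do not overlap in any of the 8 genes, while Slpi reaches 429 CPM in replicate 1 of the triple knockout against at most 73.8 CPM in the other 4. The 8 were picked from the called genes, of which 249 of 327 had no overlap, beside 4.77% of all genes tested.

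Casp8, a targeted gene that was called lower, is on neither of the lists of TNF signalling and cell death. Of 32 genes of TNF receptor signalling 1 rose and none fell, with a median of 0.10, a share close to the 2.12% of all genes. The kinase Map3k8, which acts between TNF receptors and the ERK pathway, rose to 4.62 CPM in the triple knockout, against 1.48 CPM in WT (adjusted p = 0.0294, edgeR, 0.0585 without replicate 1). Among the adaptors, Ripk1 had 67.1, 70.4, 62.6, 55.2 and 60.6 CPM in the triple knockouts and 58.5, 69.7, 61.4, 64.8 and 68.4 CPM in WT, Tradd averaged 100.4 CPM in the triple knockout and 98.8 CPM in WT, and Fadd 20.3 CPM in the triple knockout and 24.7 CPM in WT (adjusted p = 0.923, 0.946 and 0.321, edgeR). The NF-kB inhibitors Nfkbia and Tnfaip3 averaged 309.8 CPM in the triple knockout and 248 CPM in WT, and 11.4 CPM in the triple knockout and 8.59 CPM in WT (adjusted p = 0.259 and 0.527). Tnf, the ligand, had 10.2, 0.704, 0.222, 5.2 and 0.679 CPM in the triple knockouts and 0, 0, 0.46, 0.932 and 1.56 CPM in WT, a few reads in most libraries (adjusted p = 0.18). None of 30 cell death genes passed by edgeR (13 at an unadjusted p under 0.05, 11 of them higher, 1 by limma voom and 2 by DESeq2). Ripk3, the kinase that activates MLKL, had 33.3, 5.4, 12.7, 16.2 and 15.4 CPM in the triple knockouts and 6.6, 6.87, 8.51, 8.85 and 10.9 CPM in WT (adjusted p = 0.0801). Zbp1, a nucleic acid sensor upstream of RIPK3, had 75.6, 7.51, 14.9, 17.2 and 13.1 CPM in the triple knockouts and 4.62, 6.4, 5.75, 9.79 and 5.2 CPM in WT (adjusted p = 0.145). In both genes replicate 1 of the triple knockout was the highest library. Of 18 inflammatory cytokines and NF-kB targets Ccl28, an epithelial chemokine that draws IgA plasma cells, was the only call (5.56%, beside 2.12% of all genes). It averaged 42.4 ± 8.09 CPM in the triple knockout and 24.2 ± 5.92 CPM in WT (adjusted p = 0.0111, edgeR, 0.0508 without replicate 1 and 0.0501 with sex).

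Interferon genes were highest in replicate 1 of the triple knockout. None of 39 genes of the type I interferon response passed by edgeR, although 38 of them had a positive log2 fold change and the median was 1.33, or 0.58 without replicate 1. At an unadjusted p under 0.05 there were 23, all higher, while limma voom called 0 and DESeq2 4. Isg15, a ubiquitin-like modifier, had 219, 9.38, 10.9, 22.2 and 9.28 CPM in the triple knockouts and 1.32, 2.37, 2.07, 2.8 and 3.38 CPM in WT (adjusted p = 0.111, edgeR). Ifit1, which binds viral RNA caps, had 185, 10.3, 16.2, 32.6 and 13.8 CPM in the triple knockouts and 5.06, 2.37, 3.68, 3.96 and 4.42 CPM in WT (adjusted p = 0.108). In both genes all 5 triple knockouts lay above WT, the other 4 far below replicate 1. Of the 39 genes 9 had no overlap between the groups, all higher in the triple knockout, which is 23.1% beside 2.34% of all genes. The mean log2 CPM of the list was 6.04 in replicate 1, 3.35 to 4.02 in the other 4 triple knockouts and 2.74 to 3.16 in WT. Of 24 interferon gamma response genes 1 rose (4.17%, beside 2.12% of all genes), the T cell chemokine Cxcl9. It had 32.8, 1.41, 3.33, 1.6 and 0.226 CPM in the triple knockouts and 0, 0, 0, 0.233 and 1.04 CPM in WT (adjusted p = 0.0451, edgeR, 0.452 without replicate 1). The list's median was 1.29, or 0.40 without replicate 1 of the triple knockout. None of 17 genes of MHC class I presentation passed by edgeR (6 at an unadjusted p under 0.05, all higher, 0 by limma voom and 1 by DESeq2).

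Of 12 genes of MHC class II presentation, which shows antigen to CD4 T cells, 4 rose and none fell (33.3%, beside 2.12% of all genes). The median was 1.35, and 1.16 without replicate 1, when none passed. H2-Ab1, a chain of the class II molecule, had 365, 165, 271, 255 and 181 CPM in the triple knockouts and 75.9, 68.3, 121, 70.1 and 142 CPM in WT (adjusted p = 0.0207, edgeR). H2-Eb1, another chain, had 222, 118, 225, 188 and 139 CPM in the triple knockouts and 52.8, 46.7, 80, 46.8 and 99.4 CPM in WT (adjusted p = 0.0183), and Cd74, the invariant chain, had 350.4, 132, 188, 250.1 and 162 CPM in the triple knockouts and 51.9, 53.6, 89.4, 52.9 and 96.5 CPM in WT (adjusted p = 0.0166). The groups did not overlap in these 3 genes, and WT replicates 3 and 5 were the highest of WT in each. H2-DMa, which loads peptide, averaged 18.2 CPM in the triple knockout and 7.26 CPM in WT (adjusted p = 0.0441). All 4 lost their calls in at least 4 of the 10 fits that left out 1 library, and with sex in the model (0.0616 to 0.115), where 1 other member passed. The transactivator Ciita averaged 26 CPM in the triple knockout and 9.9 CPM in WT (adjusted p = 0.135). Summed over the B cell list, which shares H2-Ob, the level was 111 to 311 CPM in the triple knockouts and 22 to 159 CPM in WT, and its part in the class II values was not tested.

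Class II promoters are known for an X box and a Y box, and the Y box is bound by NF-Y. In promoters of RefSeq (GRCm38.p6), the core CTGATTGG was searched on both strands in the 250 bases before each start, once class II genes had been seen among the calls. It was found in 3 of the 10 class II genes with an entry, against 4.43% of all 27025 genes, and H2-Ab1, which rose, has no entry. They are shown because they are the class II promoters with this motif, written 5′ to 3′ in the direction of the gene with the Y box in capitals. H2-Eb1 (chr17:34305617-34305866, plus strand) passed the test, H2-Aa (chr17:34287824-34288073, minus strand) did not pass, and H2-Oa (chr17:34092129-34092378, plus strand) had too few reads to be tested.
H2-Eb1: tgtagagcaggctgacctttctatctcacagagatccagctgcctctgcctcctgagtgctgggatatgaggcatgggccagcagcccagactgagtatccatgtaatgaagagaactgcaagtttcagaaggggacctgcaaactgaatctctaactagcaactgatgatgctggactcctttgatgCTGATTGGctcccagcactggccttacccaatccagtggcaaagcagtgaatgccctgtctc
H2-Aa: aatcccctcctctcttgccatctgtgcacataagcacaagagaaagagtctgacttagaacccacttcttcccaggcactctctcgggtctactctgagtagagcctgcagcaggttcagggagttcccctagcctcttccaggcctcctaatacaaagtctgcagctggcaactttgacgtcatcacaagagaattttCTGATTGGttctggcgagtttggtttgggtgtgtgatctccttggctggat
H2-Oa: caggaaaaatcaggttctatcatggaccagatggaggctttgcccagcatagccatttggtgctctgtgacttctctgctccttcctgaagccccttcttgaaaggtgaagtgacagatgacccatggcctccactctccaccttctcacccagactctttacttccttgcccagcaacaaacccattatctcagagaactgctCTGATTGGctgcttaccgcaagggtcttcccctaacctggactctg
The motif begins 62 bases before the start in H2-Eb1, 51 in H2-Aa and 46 in H2-Oa. Cd74, which rose, also has no entry and was not searched, and H2-DMa, which rose, does not hold these letters in its window. In all 4 motifs were searched, the other 3 in the 39 XBP1 target genes with an entry, of which CCACG was found in 25 genes (64.1%, against 31.0% of all 27025 genes), GACGTG in 7 (17.9% against 5.87%) and TGACGTGG in 2 (5.13% against 0.603%). GACGTG lies within TGACGTGG, and CCACG within its reverse complement. Of the 4 XBP1 targets that passed, Derl2 and Derl3 held CCACG and none held the other 2.

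Plasma cell genes were the list with the most calls. Of 19 tested 9 rose and none fell (47.4%, beside 2.12% of all genes), with a median of 1.90. In this list 3 passed without replicate 1 of the triple knockout and 3 with sex in the model. Ighg2b, an IgG heavy chain, had 32.8, 16.7, 37.1, 34.8 and 35.1 CPM in the triple knockouts and 1.32, 0.474, 3.22, 1.16 and 3.64 CPM in WT (adjusted p = 0.00249, edgeR, 0.0131 with sex). Irf4, a transcription factor of plasma cells and activated lymphocytes, had 5.35, 5.63, 7.32, 8.8 and 6.34 CPM in the triple knockouts and 1.76, 1.66, 2.07, 1.16 and 2.86 CPM in WT (adjusted p = 0.00298, 0.0214 with sex). Igha, the IgA heavy chain, had 5733, 1172, 2299, 2382 and 1314 CPM in the triple knockouts and 843, 237, 347, 646 and 713 CPM in WT (adjusted p = 0.0183). Jchain, which joins IgA into dimers, had 498, 125, 214, 216 and 127 CPM in the triple knockouts and 78.1, 19, 35.9, 62.7 and 54.6 CPM in WT (adjusted p = 0.0124). In all 4 genes every triple knockout lay above every WT mouse. This held for 11 of the 19 genes of the list (57.9%), beside 2.34% of all genes. Mzb1, an ER cochaperone of B cells and plasma cells, averaged 9.57 CPM in the triple knockout and 2.38 CPM in WT (adjusted p = 0.0118, edgeR, 0.0552 without replicate 1) and lay below the double knockout at 24.6 CPM (adjusted p = 0.0283). Its reads were counted almost alike for an overlapping gene, listed as SPATA24, and heavy and light chain genes can share reads among near copies, so single members of these families are uncertain. Summed levels of the list were 2162 to 9966 CPM in the triple knockouts and 486 to 1621 CPM in WT.

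Other immune cells showed fewer calls. Calls were 6.67% of the T and NK cell list and 5.0% of the B cell list. They were 23.1% of the monocyte and macrophage list, beside 2.12% of all genes. Of 15 T and NK cell genes Cd2, an adhesion receptor, rose, at 5.11, 5.63, 5.33, 6 and 2.72 CPM in the triple knockouts and 0.88, 0.474, 1.15, 0 and 1.04 CPM in WT (adjusted p = 0.00249, edgeR, 0.0131 with sex), and its ligand in mice, Cd48, rose to 2.75 CPM in the triple knockout, against 0.435 CPM in WT (adjusted p = 0.00395). Of 20 B cell genes 1 rose, Vpreb3, and the median of the list was 1.63. Vpreb3 kept its call in 2 of the 10 fits that left out 1 library (adjusted p = 0.127 with sex in the model, edgeR). Ms4a1, which encodes CD20, averaged 12.4 CPM in the triple knockout and 3.78 CPM in WT (adjusted p = 0.26). B cell levels split WT as well, since WT replicates 3 and 5 had a mean log2 CPM of 2.67 and 2.57 and the other 3 WT mice 0.216 to 0.634. Of 26 monocyte and macrophage genes 5 rose and 1 fell, with a median of 0.55. The monocyte chemokine receptor Ccr2 had 19.9, 14.1, 18.9, 22.8 and 11.5 CPM in the triple knockouts and 7.26, 7.35, 7.13, 6.06 and 6.5 CPM in WT (adjusted p = 0.0143, 0.0449 with sex). Ly6c2, a monocyte surface marker, averaged 10.4 CPM in the triple knockout and 1.13 CPM in WT (adjusted p = 0.0196). It lost its call with sex in the model (0.145, edgeR) and without replicate 1 of the triple knockout (0.0999). Cd163, the haemoglobin scavenger receptor of resident macrophages, fell, at 2.43, 8.68, 10.9, 10 and 8.82 CPM in the triple knockouts and 14.3, 19, 24.4, 25.2 and 22.4 CPM in WT (adjusted p = 0.0161, 0.0582 without replicate 1). Of 21 neutrophil markers 5 had enough reads and none passed by edgeR, limma voom or DESeq2 or at an unadjusted p under 0.05, and S100a8 averaged 1.04 CPM in the triple knockout and 0.327 CPM in WT.

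**Figure D4:**
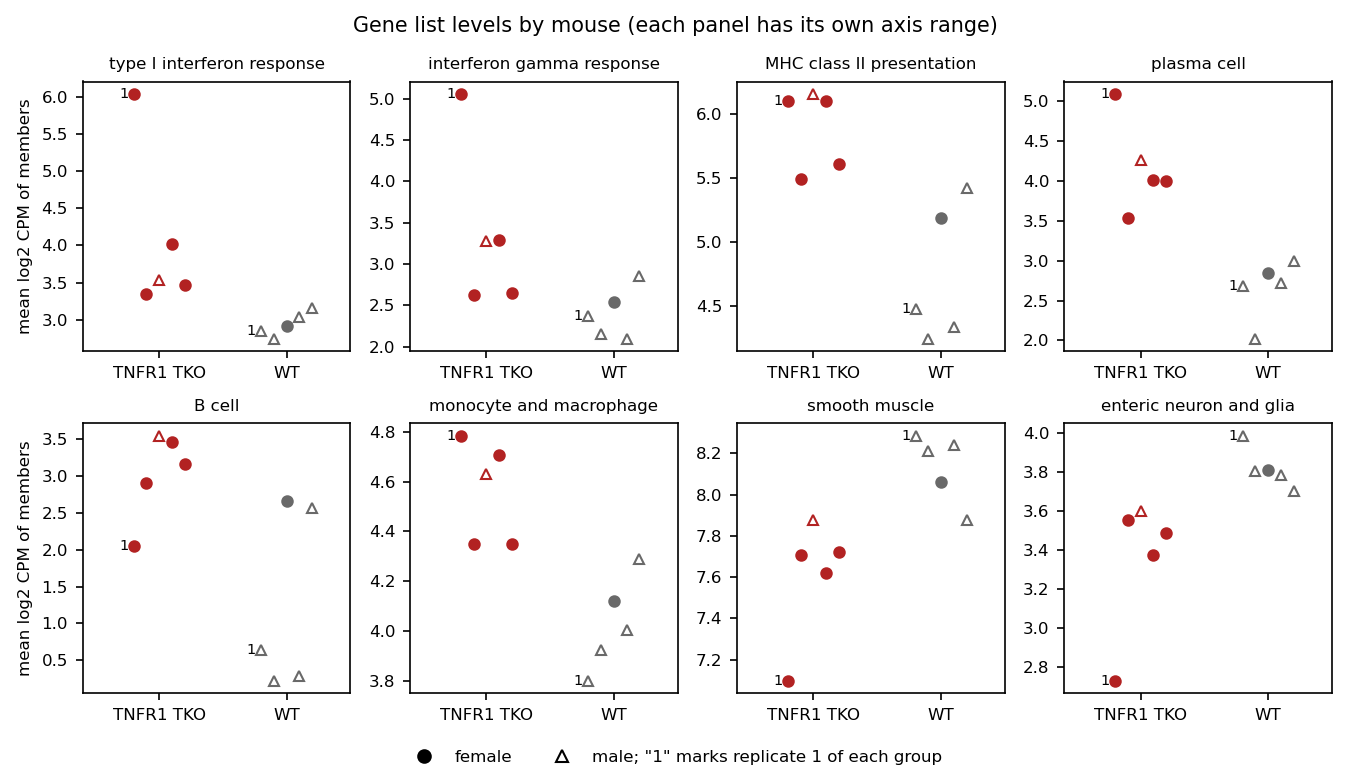
Mean log2 CPM of the tested members (y axis, a separate range in each panel) of 8 gene lists in the triple knockout (red, left) and WT (grey, right), 1 point per mouse, filled circles for females and open triangles for males, with replicate 1 of each group marked. Replicate 1 of the triple knockout stands far above the others for both interferon lists and below them for smooth muscle and for neurons and glia.

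Genes of the muscle coat and the connective tissue fell in part. All 26 smooth muscle genes had a negative log2 fold change, with a median of -0.48, and 7 passed (26.9%, beside 2.12% of all genes). None of these 7 passed with sex in the model or without replicate 1 of the triple knockout. Tpm1, a tropomyosin, had 1229, 1538, 1763, 1389 and 1548 CPM in the triple knockouts and 2271, 2313, 1933, 2400 and 1773 CPM in WT (adjusted p = 0.0244, edgeR, 0.102 without replicate 1), and lay above the double knockout at 1079 CPM (adjusted p = 0.0392). Smtn, which binds actin filaments, averaged 219.7 CPM in the triple knockout and 323 CPM in WT (adjusted p = 0.0307), and Pcp4, a calmodulin regulator, 18.2 CPM in the triple knockout and 36.3 CPM in WT (adjusted p = 0.0127), with 7.51 CPM in the double knockout (adjusted p of that difference = 0.00474). Summed levels of the muscle list were 8543 to 15400 CPM in the triple knockouts and 14419 to 19325 CPM in WT. Of 28 fibroblast and matrix genes 4 fell (14.3%, beside 2.12% of all genes). The collagen genes Col4a1 and Col5a1 lost their calls with sex in the model (adjusted p = 0.174 and 0.115, edgeR). They also lost them without replicate 1 of the triple knockout (0.0804 and 0.109). Col6a2, a chain of collagen VI, had 62, 81.2, 83, 71.8 and 87.6 CPM in the triple knockouts and 106, 137, 113, 117 and 121 CPM in WT (adjusted p = 0.00395, edgeR, 0.0174 with sex), and Sparc, a matrix glycoprotein, averaged 397 ± 51.4 CPM in the triple knockout and 611 ± 105 CPM in WT (adjusted p = 0.00783, 0.0441 with sex). Lyve1, a hyaluronan receptor of lymphatic endothelium and some macrophages, had 25.3, 56.3, 58.6, 37 and 40.7 CPM in the triple knockouts and 91.1, 104, 100, 123 and 108 CPM in WT (adjusted p = 0.00717, 0.0454 with sex). Lyve1 and the junction gene Esam were the calls among 21 genes of endothelium (9.52%, beside 2.12% of all genes). Esam lost its call with sex in the model (adjusted p = 0.12, edgeR). None of 22 genes of enteric neurons and glia passed by edgeR, with a median of -0.38, while 11 had an unadjusted p under 0.05, all lower, and limma voom and DESeq2 called 5 and 3. The share of muscle in each piece of colon was not measured, and its part in the values of all other lists was not tested.

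The lists of cholesterol synthesis, fatty acid oxidation and the cell cycle held no call by edgeR, limma voom or DESeq2 among 24, 23 and 32 genes (2, 2 and 4 at an unadjusted p under 0.05). Of 42 cytosolic ribosomal protein genes 1 passed (2.38%), and of 31 genes of xenobiotic metabolism 2 rose (6.45%), Nqo1 and the glutathione transferase Gsta3. Both lost their calls without replicate 1 of the triple knockout (adjusted p = 0.0731 and 0.1002, edgeR). None of 9 mitochondrially encoded genes passed by edgeR (2 at an unadjusted p under 0.05). Of 26 genes of epithelial repair 1 rose (3.85%), Hbegf, a ligand of the EGF receptor. It averaged 48.7 CPM in the triple knockout and 23.2 CPM in WT (adjusted p = 0.0118, edgeR, 0.0536 with sex). Of 12 matrix metalloproteinases and inhibitors 1 rose, Mmp12 (8.33%), and of 7 squamous genes 2 rose, Krt13 and Ly6d (28.6%). Krt13 and Ly6d each kept the call in 4 of the 10 fits that left out 1 library. Both lost it with sex in the model (adjusted p = 0.231 and 0.174, edgeR). Plin4, a lipid droplet protein, fell as the 1 call among 11 genes of fat (9.09%). It kept its call in 2 of the 10 fits that left out 1 library (adjusted p = 0.209 with sex in the model, edgeR). Of 21 stem cell and WNT genes Cd44 and Wnt8b were the calls (9.52%), and of 14 genes of zinc handling Mt1 was (7.14%). The share of all genes was 2.12%, and most of these lists are short. By edgeR no call fell on 16 immediate early genes, 3 of eosinophils and mast cells, 2 of male accessory glands or 6 sex marker genes, where 7, 1, 1 and 0 had an unadjusted p under 0.05. DESeq2 called 1, 1, 0 and 0 of these and limma voom 3, 0, 1 and 0.

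A stretch of chromosome from another strain can travel with an altered allele, so genes close to the targeted loci were counted apart. Within 20 Mb of Casp8 10 of 227 other genes passed (4.41%), 2 higher and 8 lower, within 20 Mb of Xbp1 4 of 135 (2.96%), and within 20 Mb of Tnfrsf1a 6 of 268 (2.24%), against 2.12% of all genes. Gm37607, annotated as a transcript yet to be experimentally verified, 0.437 Mb from Casp8, had 0.243, 0.469, 0.888, 1.2 and 0.679 CPM in the triple knockouts and 5.72, 10.9, 9.43, 8.62 and 6.76 CPM in WT (-3.49 ± 0.44, adjusted p = 3.59e-05, edgeR). It averaged 1.04 CPM in the double knockout, 1.21 CPM in the MLKL triple knockout, 2.68 CPM in the Casp8 knockout and 4.99 CPM in the Xbp1 knockout. Trak2, a motor adaptor 0.116 Mb away, had 14.3, 19.9, 17.3, 21.4 and 16.5 CPM in the triple knockouts and 33.9, 30.6, 30.6, 36.3 and 26.5 CPM in WT (adjusted p = 0.00179). On chromosome 6, within 1 Mb of Stk38l and 21.4 Mb from Tnfrsf1a, 4 of 16 genes tested passed, all lower, a window chosen after the values were seen. Stk38l, a kinase that controls cell shape, had 8.27, 7.74, 18.2, 7.2 and 20.4 CPM in the triple knockouts and 14.3, 37.2, 37.5, 33.3 and 31 CPM in WT (-1.31 ± 0.27, adjusted p = 0.00875), and lay below the double knockout at 37.1 CPM (-1.59 ± 0.26, adjusted p = 0.00127, edgeR). WT replicate 1 was low for Stk38l and lay within the range of the triple knockouts. The genetic background of the mice is not in the labels, and its part in these values was not tested.

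**Figure D5:**
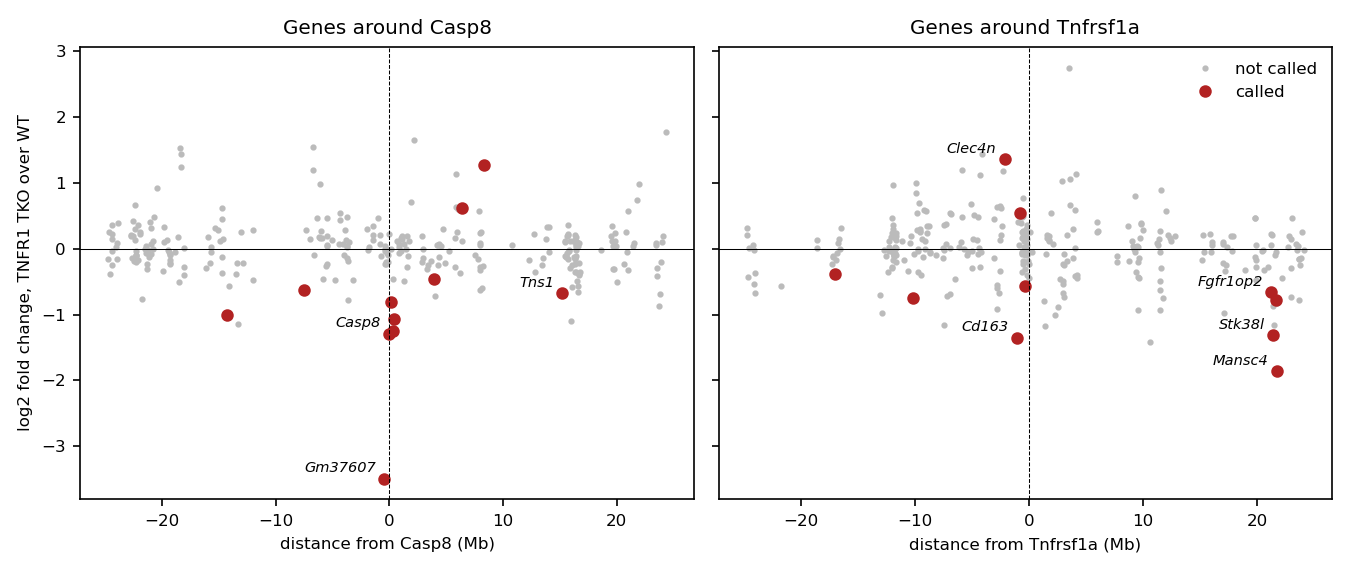
Log2 fold change of the triple knockout over WT (y axis) of genes within 25 Mb of Casp8 (left) and Tnfrsf1a (right), against their distance from the locus in Mb (x axis). Called genes are red, and Gm37607 at 0.437 Mb from Casp8 has the lowest value, -3.49, on the log2 scale.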

How the data were processed

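Colon RNA of 30 mice, 5 of each genotype, was sequenced as 3′ tags (Lexogen QuantSeq, forward protocol), per the labels' protocols. The authors deposited estimated counts per Ensembl gene, with cutadapt 3.2, Subread, featureCounts 2.01, R 4.0.0 and GRCm38 named in the submitters' processing notes. The annotation release, the strand setting and how reads were divided between genes are not stated in those notes or in the file. Tags are counted once per transcript end, so counts were not corrected for length, and PCR copies may be among them.

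Of 55579 features 92 spike-in sequences with 0 reads were dropped. Of 55487 genes 55227 matched a symbol of GENCODE on the same build, and the other 260 held 0.0190% of reads. Among values above 0, 11.2% were not whole. All were rounded, which changed totals by at most 0.00321%. The table has 0 columns of no sample. Genes were filtered by filterByExpr and all 30 libraries entered 1 fit (R 4.3.3, edgeR 4.0.16, TMM, quasi-likelihood F test, Benjamini-Hochberg over all genes, threshold 0.05, biological coefficient of variation 0.186). The SE is the absolute log2 fold change over the square root of F. CPM were scaled by TMM, and log2 CPM used a prior count of 2. Principal components used the 1000 most variable genes. The procedure was tested on simulated data. It recovered 63% of genes set to differ by 1 on the log2 scale and 94% of those set to differ by 2. Of its calls 5.42% were false. The simulated counts held no effect of sex and no mouse that stood apart, so they do not cover these features of the data.

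The comparison, the 42 gene lists and the rule for named genes were chosen with earlier results of these data known. The rule took the targeted genes and Mlkl. It added, per direction, the 12 called genes with the smallest p that differed by 2-fold or more, leaving out sex markers, immunoglobulin segments and genes known by model numbers. It also added up to 4 called members of each list. The calls of the tuft cell list are not reported here. Uncalled list members and genes outside the rule were chosen after their values were seen, for their role. Alternatives were DESeq2 size factors, no filter and a stricter one, only the groups compared, limma 3.58.1 voom, DESeq2 1.42.0, a replicate block, sex, each sex alone, each library left out, and genes near the loci left out. Sex without replicate 1 of the triple knockout was added after seeing the data. Between any 2 replicates of a group the chi-square of the counts was at least 3.25 times its degrees of freedom. Poisson variance alone would give about 1, so each library counted once.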

Additional observations from a re-analysis of the deposited data

Results flagged for a closer look

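In groups of 5, a library is set out here when its gap to the nearest of the others is large for the group's range. Chance gives this in about 1 group in 20 where values follow a normal distribution. CPM need not do so, above all where most libraries are near 0, as for Reg3b. The rule was applied in both groups to the genes named by rule, the lists and the mitochondrial share. Some of the values set out can therefore come from chance alone. Of 33 such values among the genes and lists described, 22 belonged to replicate 1 of the triple knockout. It was the highest of its group for Ddah1 (91.4 CPM, the other 4 at 24.9 to 38.6), Mgat4c (300.3 CPM, the other 4 at 117 to 142), Mzb1 (16.8 CPM, the other 4 at 6.10 to 8.60), Reg3b (0.486 CPM, the other 4 at 0), Slpi (429 CPM, the other 4 at 26.9 to 73.8), Fyb (50.1 CPM, the other 4 at 18.3 to 27.2), Pla2g2a (21.2 CPM, the other 4 at 3.62 to 4.88), Cxcl9 (32.8 CPM, the other 4 at 0.226 to 3.33), Fcgbp (696 CPM, the other 4 at 369 to 448), Mlkl (30.2 CPM, the other 4 at 6.80 to 11.3) and Xbp1 (109 CPM, the other 4 at 52.2 to 62.9). It was the lowest for Cd163 (2.43 CPM, the other 4 at 8.68 to 10.9) and Smtn (153 CPM, the other 4 at 223 to 243).

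In mean log2 CPM of lists, the same library was the highest for MHC class I and immunoproteasome (6.49), XBP1 target secretory genes (6.0), epithelial antimicrobial and acute phase (5.40), epithelial repair and EGF receptor ligands (5.89), inflammatory cytokines and NF-kB targets (3.90), interferon gamma response (5.06) and type I interferon response (6.04). It was the lowest for endothelium (3.25) and enteric neuron and glia (2.73).

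Bcas1os2 in WT replicate 4 was 43.3 CPM, above 34.0 to 34.8 CPM in the other 4. Cd2 in triple knockout replicate 5 was 2.72 CPM, below 5.11 to 6 CPM in the other 4. Ighg2b in triple knockout replicate 2 was 16.7 CPM, below 32.8 to 37.1 CPM in the other 4. Casp8 in WT replicate 4 was 58.7 CPM, above 51.5 to 52.8 CPM in the other 4. Stk38l in WT replicate 1 was 14.3 CPM, below 31.0 to 37.5 CPM in the other 4. Reg3b in WT replicate 3 was 141 CPM, above 0 to 3.03 CPM in the other 4. Nqo1 in triple knockout replicate 2 was 13.1 CPM, below 18.4 to 20.1 CPM in the other 4. Cxcl9 in WT replicate 5 was 1.04 CPM, above 0 to 0.233 CPM in the other 4.

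In mean log2 CPM, the neutrophil list was 2.67 in WT replicate 4, above 1.73 to 1.94 in the other 4, the small intestine and Paneth cell list was 4.85 in WT replicate 3, above 3.06 to 3.56 in the other 4 and the tuft cell list was 2.97 in triple knockout replicate 5, below 3.08 to 3.10 in the other 4.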

How the results depend on the processing

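Against WT 327 genes passed. The count was 836 by limma voom, 560 by DESeq2, 74 with sex in the model (69 of them among the 327), 8 in females, 1 in males and 40 with sex in the model without replicate 1 of the triple knockout. It was 77 to 507 with 1 library left out. It stayed within 1.5 times with DESeq2 size factors (335), no filter (416), a stricter filter (289), only these groups (308, of which 220 were shared) and without genes near the loci (306). Against the double knockout 363 passed, and 21 with only these groups, 0 in females, 1 in males and 63 to 931 with 1 library left out. The 0 in females compares 4 triple knockouts with 1 double knockout by edgeR. The 74 called genes named by rule did not change direction under the settings run, and of their 1534 values under these settings 1075 kept and 459 lost the call. Correlations of same-numbered triple knockouts and WT were -0.300 to 0.117, so no pairing by replicate number was seen. Same-numbered mice differ in sex and litter is not in the labels, so these values cannot exclude pairing. With the replicate block 290 genes passed against WT and 289 against the double knockout. Genes of a few CPM rest on few reads, and with 1 male triple knockout and 1 female WT mouse genotype and sex cannot be told apart for most genes.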

Other observations

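Of the 51 genes that passed with sex in the model and without each of 10 libraries, 22 lay outside the rule for named genes, 9 higher and 13 lower, and those below were chosen after their values were seen. Qsox1, a sulfhydryl oxidase of the secretory pathway, averaged 149 ± 16 CPM in the triple knockout and 247 ± 38.6 CPM in WT (SD, n = 5 each, adjusted p = 0.00184, edgeR). Gcnt3, which builds branched mucin glycans, averaged 48.1 ± 7.61 CPM in the triple knockout and 80.6 ± 13.5 CPM in WT (adjusted p = 0.0118), and Muc1, a membrane mucin, 3.06 ± 2.35 CPM in the triple knockout and 9.62 ± 1.47 CPM in WT (adjusted p = 0.0166). Hepacam2, an adhesion protein, averaged 63.6 ± 11.2 CPM in the triple knockout and 112 ± 13.3 CPM in WT (adjusted p = 0.0118). Oat, the ornithine aminotransferase, averaged 60.5 ± 13.8 CPM in the triple knockout and 102 ± 10.2 CPM in WT (adjusted p = 0.00566).

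Several immune genes of this set were higher. Mpeg1, a pore-forming protein of macrophages, averaged 16.7 ± 4 CPM in the triple knockout and 5.2 ± 1.2 CPM in WT (adjusted p = 0.00448, edgeR). Ly86, a partner of the receptor RP105, averaged 12.1 ± 2.25 CPM in the triple knockout and 3.57 ± 1.38 CPM in WT (adjusted p = 0.00717). Ptpn22, a lymphocyte phosphatase, averaged 5.59 ± 2.06 CPM in the triple knockout and 1.43 ± 0.44 CPM in WT (adjusted p = 0.0118), and Lat, the adaptor of the T cell receptor, 2.05 ± 0.412 CPM in the triple knockout and 0.415 ± 0.289 CPM in WT (adjusted p = 0.0134). Capg, which caps actin filaments, averaged 46.7 ± 12.2 CPM in the triple knockout and 20.4 ± 4.28 CPM in WT (adjusted p = 0.00778).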
